A study of Mus musculus with 12 samples.

Results

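Htra1, Pi16, Gkn3, Agr2, Pde3a and S100a4 are 6 genes that stood higher in Ly6a-GFP-positive arterial endothelial cells of the mouse embryo than in 3 other sorted populations. They were taken by symbol from the 33531 genes with deposited values, and were chosen by their FPKM, for a high level or a large GFP difference in endothelial cells and a smaller one in hematopoietic cluster cells. The choice had no numerical threshold. Because it used the values described here, the members' levels and differences are a description, with no test. All 6 passed the filter on low values (3 or more of the 12 libraries at FPKM 1 or above), as did 13278 genes in all.

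During development, blood stem cells arise from the lining of the large arteries, where some endothelial cells turn into blood-forming cells that bud off in clusters. Ly6a encodes the surface antigen Sca-1, and a GFP reporter of Ly6a marks part of the arterial endothelium and the cluster cells that include the first stem cells. The 6 genes belong to unrelated families. Htra1 encodes a secreted serine protease that cuts matrix proteins and restrains TGF-beta signalling, and loss of the human enzyme causes a disease of small brain arteries. Pi16 encodes a cell-surface protein of the CAP superfamily, best known from fibroblasts, and Gkn3 a secreted gastrokine found in stomach and in brain arteries. Agr2 encodes a disulfide isomerase of the endoplasmic reticulum needed for mucin production. Pde3a encodes a phosphodiesterase that breaks down cyclic AMP and is inhibited by cyclic GMP, and S100a4 a small calcium-binding protein that binds non-muscle myosin.

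The cells came from 122 embryos at embryonic day 11.5, from the dorsal aorta together with the vitelline and umbilical arteries. All embryos carried the Tg(Ly6a-GFP) transgene, inherited from the father, and their mothers were F1 females of C57BL/6 and 129S1/SVImJ, so every population shares transgene and mixed background. Endothelial cells (EC) were sorted as CD31+ CD144+ ESAM+ c-Kit-, and hematopoietic cluster cells (HC) as positive for all 4 proteins. Splitting by GFP gave 377000 GFP+ EC, 791000 GFP- EC, 53000 GFP+ HC and 413000 GFP- HC, each divided into 3 independent pools, so that a library holds cells of many embryos. The GFP split follows the transgene and not Ly6a protein itself.

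Levels are FPKM (fragments per kilobase of transcript, relative to the mapped fragments of the library), the only unit deposited, so depth is unknown. FPKM sums ranged from 555675 to 691948 and the genes at FPKM 1 or more from 12147 to 12779 per library. Ly6a was at 8.42 to 9.05 FPKM in GFP+ EC and 0.0585 to 1.37 in GFP- EC, and at 3.57 to 7.09 and 0.0538 to 1.47 in the HC. All 12 pan-endothelial genes examined, Pecam1 and Cdh5 among them, had a mean of 1 FPKM or more in every population. Kit, which encodes the protein that separated EC from HC, was at 12.6 to 18.6 FPKM in GFP- EC and 19.1 to 25.8 in GFP- HC, and at 13.3 to 14.5 in GFP+ EC and 33.2 to 39.2 in GFP+ HC. In bulk samples, fewer cells that express a gene and less RNA per cell cannot be told apart.

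The label under which these genes were grouped calls them specific to endothelium. The data bear this out only in degree. Htra1, Pi16 and S100a4 were also higher in GFP+ than in GFP- HC, with no overlap between the libraries, and only Gkn3 was below 1 FPKM in every HC library. They are therefore described as genes highest in GFP+ EC.

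The 250 bases before the annotated start are shown for 3 members, Htra1 and Pi16 because their profiles over the libraries were the most alike of any pair, and Gkn3 because it was the member with the lowest level in HC. RefSeq sequences of build GRCm38.p6 were matched for 5 of the members, all but Pde3a. The values were made on mm9, and no coordinate was carried between the builds. Each sequence runs 5′ to 3′ on the gene's strand up to the base before the start. Capitals mark letters of short motifs searched on both strands: the letters AGGAAG for ETS factors, GATAA for GATA factors, TGTGGT for RUNX factors, TGGGAA for the Notch effector RBPJ, CCACCC for KLF factors, TGTTTA for FOX factors, and TATAAA for a TATA box. No match overlaps another.
Htra1, chr7:130935953-130936202, plus strand: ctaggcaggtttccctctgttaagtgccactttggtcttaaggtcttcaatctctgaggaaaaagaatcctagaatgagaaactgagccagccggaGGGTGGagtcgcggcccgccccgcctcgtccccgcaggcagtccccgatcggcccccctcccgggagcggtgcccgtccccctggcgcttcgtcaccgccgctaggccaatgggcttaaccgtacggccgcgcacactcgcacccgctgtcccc
Pi16, chr17:29318632-29318881, plus strand: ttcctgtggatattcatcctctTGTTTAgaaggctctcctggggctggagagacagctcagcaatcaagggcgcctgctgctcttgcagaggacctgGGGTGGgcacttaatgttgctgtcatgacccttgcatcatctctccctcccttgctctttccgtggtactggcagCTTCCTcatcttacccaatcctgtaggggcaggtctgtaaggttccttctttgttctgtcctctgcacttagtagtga
Gkn3, chr6:87388936-87389185, minus strand: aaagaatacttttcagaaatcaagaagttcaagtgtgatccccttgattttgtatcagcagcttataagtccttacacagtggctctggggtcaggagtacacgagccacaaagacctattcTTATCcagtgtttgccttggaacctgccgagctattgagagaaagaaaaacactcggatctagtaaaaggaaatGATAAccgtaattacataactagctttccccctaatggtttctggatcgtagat

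These upstream sequences differed in base composition. Htra1 had 64.8% G and C with 22 CG pairs, Pi16 52.4% with 2, and Gkn3 40.8% with 5, where the median over all 32851 promoters was 52.4% and 6. The capitals in Htra1 are 1 match to the KLF letters on the opposite strand, and Pi16 had matches to the ETS, KLF and FOX letters. Gkn3 had 2 GATA matches, beginning 128 and 54 bases before the start. The KLF letters were found in 4 of the 5 member sequences and in 28.1% of all promoters, the ETS letters in 2 and in 29.5%, and the GATA letters in 1 and in 22.6%. FOX (12% of all), RBPJ (21.6%) and TATA box letters (12.4%) matched 1 member each, and RUNX letters (14%) matched none in this window. S100a4 was the member with the TATA box letters, 31 bases before the start. The matches are a description of letters, not of binding.

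Htra1, the secreted protease, was the most abundant of the genes. It stood at 86.6, 102 and 102 FPKM in GFP+ EC and at 6.46, 3.71 and 6.62 in GFP- EC. In the HC it was at 11.2, 8.51 and 13 FPKM with GFP and at 3.42, 2.75 and 3.54 without. The populations fell in the order GFP+ EC, GFP+ HC, GFP- EC and GFP- HC, with no overlap between neighbours. The mean of 96.8 ± 8.87 FPKM (SD, n = 3) in GFP+ EC was the 921st highest of the 13278 tested genes, and it was 17.3-fold the mean of GFP- EC. On the log2(FPKM + 1) scale, which understates differences of low genes, the GFP difference was 3.92 ± 0.19 (SE) in EC and 1.47 ± 0.19 in HC. The EC value was the third largest rise of all tested genes.

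Pi16, the CAP family protein, followed the same order at lower levels. It was at 40.9, 40.4 and 46.2 FPKM in GFP+ EC and at 2.92, 2.22 and 3.05 in GFP- EC. The HC had 6.81, 6.10 and 11.5 FPKM with GFP and 2.25, 3.17 and 2.74 without. The GFP+ libraries of both cell types lay above all GFP- libraries, and GFP- EC and GFP- HC overlapped, with means of 2.73 and 2.72 FPKM. Its GFP difference was 3.55 ± 0.20 log2 in EC (15.5-fold in means) and 1.26 ± 0.20 in HC (2.99-fold).

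Gkn3, the gastrokine, was the member with the lowest level in HC. It was at 8.24, 8.07 and 7.02 FPKM in GFP+ EC and at 1.39, 0.410 and 1.96 in GFP- EC. GFP+ HC had a listed 0, 0.138 and 0.889 FPKM, and GFP- HC 0.107, 0.141 and 0.0516. Every EC library with GFP was above every other library, and GFP- EC were above GFP- HC but overlapped GFP+ HC. The mean in GFP+ EC ranked 7973rd of the 13278 tested genes, and the mean in GFP+ HC was 4.40% of that in GFP+ EC. Its EC difference with GFP was 2.02 ± 0.29 log2, and its HC difference of 0.23 ± 0.29 came from overlapping libraries below 1 FPKM and was -0.04 without HC GFP+ replicate 3.

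Agr2, the disulfide isomerase of secretory cells, was at 9.69, 7.31 and 8.98 FPKM in GFP+ EC. It was at 1.81, 0.668 and 0.965 FPKM in GFP- EC, 3.02, 2.85 and 1.31 in GFP+ HC, and 1.5, 2.87 and 2.29 in GFP- HC. Only GFP+ EC stood apart, and the other populations overlapped along the order of their means. The mean in GFP+ EC ranked 7641st of the 13278 tested genes. The GFP difference was 2.20 ± 0.26 log2 in EC (7.54-fold) and 0.05 ± 0.26 in HC. The HC value turned to -0.09, -0.06 and -0.12 when HC GFP+ replicate 1, HC GFP+ replicate 2 or HC GFP- replicate 1 was left out.

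Pde3a, the phosphodiesterase, showed the same shape. It was at 17.9, 13 and 15.1 FPKM in GFP+ EC and at 1.84, 1.87 and 1.63 in GFP- EC. GFP+ HC had 2.85, 2.43 and 3.14 FPKM and GFP- HC 3.60, 0.927 and 2.59. The GFP- HC libraries spread around those of GFP+ HC, while GFP+ EC lay above all others. The GFP difference was 2.55 ± 0.26 log2 in EC (8.62-fold) and 0.26 ± 0.26 in HC, the latter -0.10 without HC GFP- replicate 2.

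S100a4, the calcium-binding protein, was the member least confined to EC. It was at 14.2, 20.0 and 22.1 FPKM in GFP+ EC and at 3.39, 0.959 and a listed 0 in GFP- EC. GFP+ HC had 7.33, 8.77 and 8.38 FPKM, or 43.4% of the mean in GFP+ EC, and GFP- HC had 4.06, 2.42 and 2.59. Both GFP+ populations lay above both GFP- populations, which overlapped. The GFP difference was 3.25 ± 0.41 log2 in EC (13-fold) and 1.21 ± 0.41 in HC (2.70-fold). The GFP- EC libraries spread from the listed 0 to 3.39 FPKM. As single libraries were left out, the EC value ranged from 2.73 (without EC GFP- replicate 3) to 3.80 (without EC GFP- replicate 1).

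**Figure D1:**
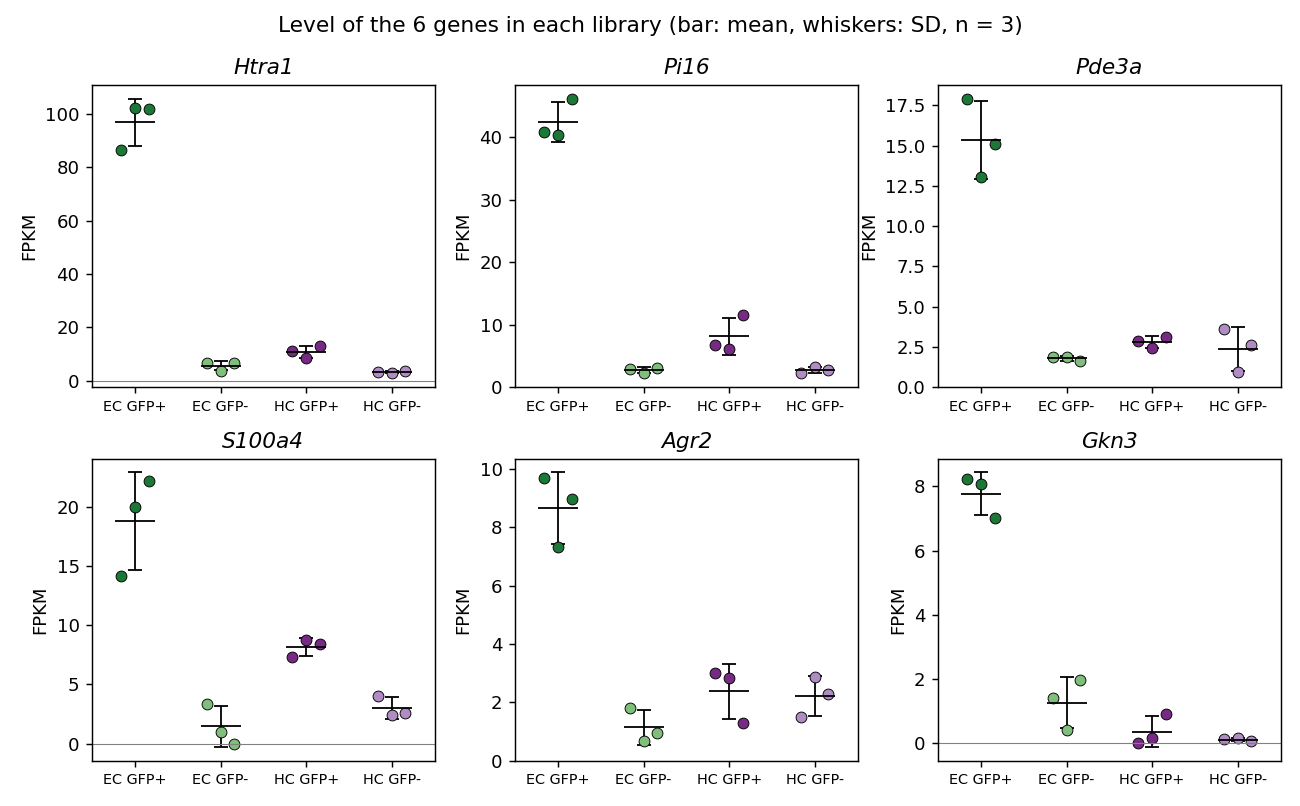
FPKM of each of the 6 genes (1 panel each) in the 12 libraries, by sorted population, with points for libraries, bars for means and whiskers for the SD. The 3 GFP+ EC libraries are the highest in every panel, from 7.02 FPKM for Gkn3 to 102 for Htra1.

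Across the members, the EC libraries with and without GFP did not overlap for 6 of 6 genes, against 14.8% of all tested genes that were higher in this way. The choice of the genes used the levels in all the populations. Nothing is therefore read from this count, nor from the other counts and differences below. The median GFP difference in EC was 2.90 log2, and -0.03 over all tested genes. In HC the median was 0.73, and 0.00 over all genes, and 3 of 6 genes were higher without overlap, against 13% of all genes. Among GFP+ cells EC exceeded HC without overlap in 6 of 6 genes (13.8% of all), with differences of 1.09 for S100a4 to 3.06 for Htra1. Among GFP- cells 2 of 6 did, Htra1 and Gkn3 (10.4% of all), with differences of 0.61 and 0.97. The others differed between GFP- EC and GFP- HC by -0.95 for S100a4 to 0.00 for Pi16, with overlapping libraries. The S100a4 value was -1.50 without EC GFP- replicate 1 and -0.43 without EC GFP- replicate 3. The GFP difference was larger in EC than in HC by 2.45 ± 0.27 for Htra1, 2.29 ± 0.28 for Pi16, 2.29 ± 0.37 for Pde3a, 2.14 ± 0.37 for Agr2, 2.04 ± 0.58 for S100a4 and 1.79 ± 0.41 for Gkn3. The EC comparisons share libraries with each other, so these differences are not independent.

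**Figure D2:**
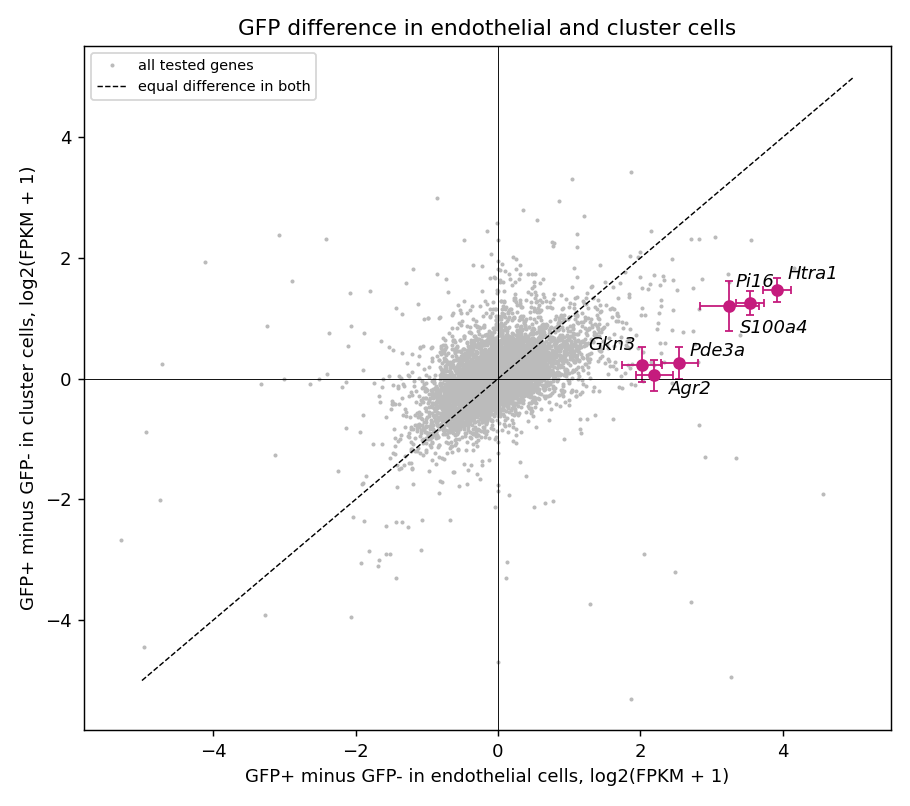
GFP+ minus GFP- on the log2(FPKM + 1) scale for every tested gene (grey), in EC on the horizontal and in HC on the vertical axis, with the 6 genes named and their SE as bars; the dashed line marks equal differences. The 6 lie far right, from 2.02 for Gkn3 to 3.92 for Htra1, and between 0.05 and 1.47 on the vertical axis, below the dashed line.

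General endothelial genes are set beside the members, because both cell types were sorted on endothelial proteins. In GFP+ HC the members had 4.40% to 43.4% of their mean in GFP+ EC, while the 12 pan-endothelial genes had 55.5% to 85.0%. In GFP- EC the members had 5.78% to 16.1% and the pan-endothelial genes 43.4% to 112%. The members' low percentages follow from how they were chosen, and nothing is read from the contrast with these 12 genes. Summed FPKM of the pan-endothelial genes was 4048 to 4299 in GFP+ EC, 2560 to 3300 in GFP- EC, 2808 to 3128 in GFP+ HC and 2266 to 3049 in GFP- HC.

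**Figure D3:**
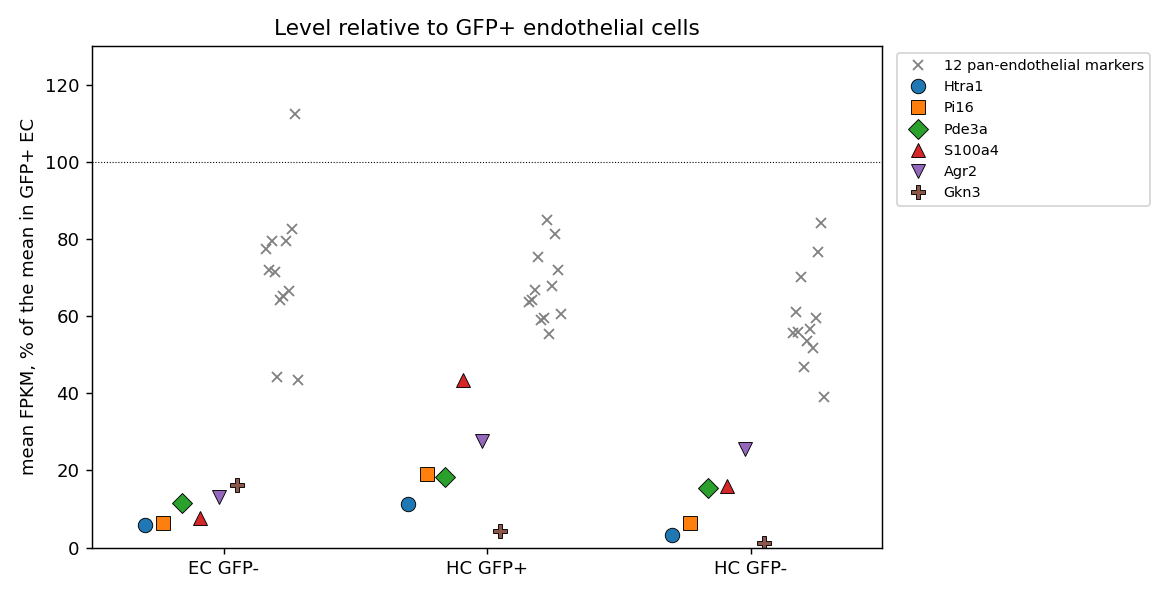
Mean FPKM as a percent of the mean in GFP+ EC, by population, for the 6 genes (coloured symbols) and 12 pan-endothelial genes (grey crosses). The 6 genes lie between 1.28% and 43.4%, while the grey crosses run from 39.1% to 112%.

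Markers of other cell types were measured beside these levels. The 15 arterial genes summed to 1145 to 1173 FPKM in GFP+ EC and 540 to 683 in GFP- EC. By limma 8 were higher (Gja5 and Hey2 among them), none lower and 7 not past the threshold. That is 53.3%, against 6.96% of all tested genes higher in EC. Unadjusted, 10 were higher and 1 lower at a limma p under 0.05. Unc5b and Cxcr4 had lower means in GFP+ EC, at 43.9 against 54.3 FPKM and 29.0 against 34.2. Without EC GFP- replicate 3 the adjusted count was 6 higher and 1 lower, and with equal FPKM sums 11 higher. In the same comparison 8 of 12 pan-endothelial genes were higher (66.7%) and none lower. That count was 4 without EC GFP+ replicate 3 or EC GFP- replicate 3, and 11 after scaling to equal FPKM sums. Their median was 0.49 log2, against 0.47 for the arterial genes. In HC the arterial sums overlapped, at 302 to 351 FPKM with GFP and 307 to 378 without. There 3 arterial genes were higher and 1 lower (26.7%, against 4.26% of all genes in either direction). The arterial genes' part in the members' levels was not tested. Smooth muscle and mesenchyme genes, from cells in which S100a4 and Pi16 are also found, summed to 290 to 572 FPKM in GFP+ EC and 339 to 1431 in GFP- EC, overlapping ranges with the higher values in the GFP- cells. By limma 1 of 14 was lower in GFP+ EC (7.14%, near the 6.51% of all genes) and none higher. At an unadjusted p under 0.05, 6 were lower. The limma count was 0 with no filter, 7 with a replicate block and 9 without EC GFP- replicate 2. In HC this list summed to 298 to 644 FPKM with GFP and 500 to 1482 without, and none passed. Macrophage genes, a cell type known for S100a4, summed to at most 35.9 FPKM in any EC library, and to 274 to 1535 in GFP+ HC and 256 to 816 in GFP- HC, where its part in the S100a4 level was not tested. Genes of secretory and gut epithelium, where Agr2 and Gkn3 are best known, summed to 25.4 to 67.7 FPKM in any library, with Tff1, Tff2 and Tff3 listed at 0 in all 12. Of the 17 genes of that list 5 had a mean of 1 FPKM or more in GFP+ EC.

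The closest relatives of the members ranged from listed at 0 to above the member's own level. Agr3 was listed at 0 in all 12 libraries, Gkn1 and Gkn2 were listed at 0 in 11 of 12, and Pi15 was at most 0.186 FPKM. Htra3, a second secreted HtrA protease, was at 3.30 ± 1.06 FPKM in GFP+ EC and 4.85 ± 0.386 in GFP- EC (log2 -0.47 ± 0.19, limma adjusted p = 0.132), and the difference was -0.25 without EC GFP+ replicate 2. Pde3b, the other phosphodiesterase of its family, was at 5.82 ± 1.04 and 4.01 ± 0.435 FPKM (log2 0.44 ± 0.13, adjusted p = 0.0535), and it passed with a pseudocount of 0.1 (0.52), after scaling to equal FPKM sums (0.60) and without EC GFP+ replicate 1 (0.57) or EC GFP- replicate 2 (0.49). S100a6, a near neighbour of S100a4, was at 30.3 ± 2.98 and 19.8 ± 12.2 FPKM (log2 0.82 ± 0.45, adjusted p = 0.263). The S100a6 difference was 0.19 without EC GFP- replicate 2 and 1.23 without EC GFP- replicate 3.

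Neighbouring genes were looked up in the RefSeq gene order of GRCm38.p6. Tspan13 follows Agr2 and was at 68.7 ± 4.57 FPKM in GFP+ EC and 68.5 ± 4.55 in GFP- EC. Mtch1 near Pi16 was at 295 ± 31.7 and 300 ± 55.1 FPKM, and Plekha1 near Htra1 at 43.1 ± 4.41 and 49.5 ± 9.98. Aebp2 near Pde3a and Arhgap25 near Gkn3 were at 18.9 ± 0.570 and 10.2 ± 0.260 FPKM in GFP+ EC, against 17.8 ± 2.46 and 10.5 ± 1.04. None of these neighbours passed the limma test between GFP+ and GFP- EC. Nor did BC004004, the nearest protein-coding gene with values on the other side of Pi16 from Mtch1. Dmbt1 beside Htra1 was listed at 0 in every library, and Bmp10 beside Gkn3 in 10 of 12.

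Families and pathway partners were examined through 9 lists of 126 genes, of which 82 were tested. In EC, 12 of the 82 were higher with GFP (14.6%) and none lower, where 6.96% of all tested genes were higher and 6.51% lower. Counted in either direction, 13.5% of all genes passed, so the total share is near the background under this scaling. After scaling to equal FPKM sums it was 29 of 83 (34.9%), against 16.6% of all genes. In HC, 1 of 82 was higher, Bgn, against 2.98% of all, and none was lower. Among GFP+ cells, 16 of the 82 were higher and 2 lower in EC than in HC (6.09% and 8.21% of all), and among GFP- cells 4 were higher and 1 lower (1.93% and 2.36%). By family, 2 of 12 other phosphodiesterases and 1 of 16 disulfide isomerases passed in EC. None did of the smaller families, with 0 of 2 HtrA proteases, 0 of 3 CAP proteins, 0 of 4 gastrokine and BRICHOS proteins and 0 of 8 S100 proteins by limma, lists too short to read a share from. At an unadjusted p under 0.05, 0, 1, 0 and 1 of these 4 families' genes were higher and 1, 1, 0 and 2 lower.

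Among known substrates of the HtrA1 protease, 3 of 11 were higher in GFP+ EC (27.3%) and 8 did not pass, with a list median of 0.17. Of all genes 6.96% were higher and 13.5% passed in either direction. At an unadjusted p under 0.05, 4 were higher and 3 lower, and the lowest values were those of the proteoglycans Dcn (-1.85 ± 0.61, limma adjusted p = 0.0715) and Fmod (-1.42 ± 0.60, adjusted p = 0.147) and of vitronectin, Vtn (-0.75 ± 0.31, adjusted p = 0.143), chosen after their values were seen. Fbln5, an elastic fibre protein, was at 30.9 ± 7.02 FPKM in GFP+ EC and 2.04 ± 0.757 in GFP- EC, a difference of 3.40 ± 0.25 (adjusted p = 1.00e-05). Fn1, which encodes fibronectin, was at 370 ± 24.3 and 120 ± 11.1 FPKM (log2 1.62 ± 0.15, adjusted p = 5.12e-05). Bgn, which encodes the proteoglycan biglycan, rose by 1.04 ± 0.09 in EC and 0.58 ± 0.09 in HC.

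Of the 12 other phosphodiesterases, 2 were higher in GFP+ EC (16.7%) and none lower. Of all genes 6.96% were higher, and 13.5% passed in either direction, near the share of this short list. The 2 were Pde9a at 23.4 ± 1.14 against 8.76 ± 2.04 FPKM (log2 1.34 ± 0.21) and Pde1b at 4.27 ± 0.274 against 1.59 ± 0.356 (1.03 ± 0.19). Of 21 genes for cyclic nucleotide synthesis and kinases, 5 were higher (23.8%, against the same 6.96% and 13.5% of all genes) and none lower. Npr1, the natriuretic peptide receptor that makes cyclic GMP, was at 110 ± 3.61 against 52.1 ± 11.5 FPKM, and Nos3, the endothelial nitric oxide synthase, at 111 ± 9.06 against 58.3 ± 8.19. Npr3, the clearance receptor for natriuretic peptides, was at 30.7 ± 1.41 against 12.8 ± 5.17 FPKM, and Adcy4, an adenylate cyclase, at 59.8 ± 1.45 against 31.2 ± 5.86. These 4 differed by 0.92 to 1.27 log2. The list's median was -0.03, as was that of all genes.

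Of 16 genes of the disulfide isomerase family of Agr2, 1 was higher in GFP+ EC (6.25%, near the 6.96% of all genes) and none lower. The gene was Pdia5, at 64.3 ± 4.24 FPKM against 40.0 ± 2.46 (log2 0.67). Of 5 binding partners of S100A4, a list too short to read a share from, only Myh9, the myosin heavy chain it binds, was higher in GFP+ EC (log2 0.39). The Myh9 call ended without EC GFP+ replicate 3 (0.34) and in a fit of only the libraries compared.

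The GFP difference was larger in EC than in HC for 3 of the 82 genes (3.66%, against 0.339% of all tested genes), which were Fbln5, Fn1 and Pdia5. The Fn1 difference between the effects lost its call when EC GFP+ replicate 3 (1.36) or HC GFP+ replicate 2 (1.38) was left out. That of Pdia5 lost its call when HC GFP+ replicate 1 (0.72) or 2 (0.75) was left out.

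**Figure D4:**
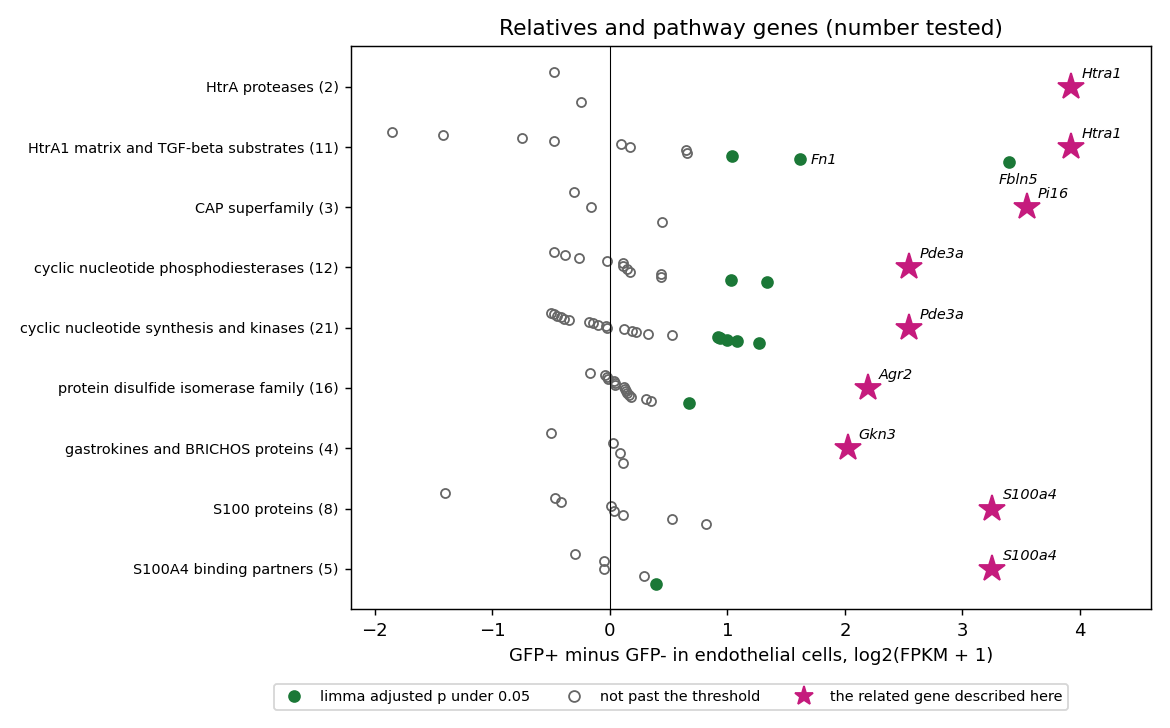
GFP+ minus GFP- in EC on the log2(FPKM + 1) scale (horizontal axis) for the tested genes of 9 family and pathway lists (rows), filled where limma's adjusted p was under 0.05, with the related member as a star. The stars lie at 2.02 to 3.92, and the highest list gene is Fbln5 at 3.40, within that range.

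Similar profiles were sought among tested genes with a mean FPKM of 5 or more in any population and no clone or model name. Genes with the most similar profile were found by standardising log2(FPKM + 1) over the 12 libraries, which mix the populations, and taking the root mean square distance, whose median over 9462 genes was 1.45 to 1.49. For Htra1 these were Wfdc1 (0.144), Lims2 (0.147) and Ctsw (0.149), and for Pi16 the laminin chain Lama3 (0.163), Megf6 (0.172) and the matrix protease Mmp2 (0.178). Htra1 and Pi16 were 0.190 apart, the closest pair of members. Pde3a was nearest to Fn1 (0.169), Vegfa (0.197) and the fibrillin Fbn1 (0.219), and Gkn3 to Tmem255b (0.242), Rras (0.255) and Tsc22d1 (0.259). S100a4 was nearest to Ncstn (0.231), Itga3 (0.308) and Pigt (0.310), and Agr2 to Extl3 (0.231), Ganab (0.334) and Dag1 (0.391). The largest distance between members was 0.957, between S100a4 and Gkn3. Standardising sets aside the size of a difference, so a gene with a near profile need not differ between populations as much as the member. Lama3 was at 9.58 ± 0.749 FPKM in GFP+ EC, 0.577 ± 0.0876 in GFP- EC, 1.80 ± 0.320 in GFP+ HC and 0.619 ± 0.233 in GFP- HC. Wfdc1 was at 7.51 ± 1.06, 0.760 ± 0.232, 1.28 ± 0.170 and 0.517 ± 0.245 in the same order. Extl3 and Rras differed less. In that order the means were 27.49, 20.78, 22.05 and 21.79 FPKM for Extl3, and 98.36, 80.03, 66.24 and 65.74 for Rras.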

How the data were processed

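Polyadenylated RNA of 12 libraries was measured, 3 pools of each of 4 sorted populations, grouped by sample title. The authors deposited FPKM per gene symbol. Per the submitters' processing notes the tools were featureCounts, Cufflinks, DESeq and edgeR on build mm9, without roles or versions. The sources used here do not name aligner, annotation or strand setting. FPKM keeps no read number, so depth is unknown, no count test was run, and an exact 0 is described as listed at 0. Genes at FPKM 1 or above in 3 or more libraries were fitted in limma 3.58.1 (R 4.3.3) on the log2(FPKM + 1) scale, in 1 model of 4 group means with 8 residual degrees of freedom and an intensity trend. Tests were two-sided and adjusted by Benjamini-Hochberg over all 13278 genes of each of 5 comparisons, with a threshold of 0.05. The script was tested on simulated data. Members and lists were chosen with earlier results of these data known. Named genes were the members, their closest paralogs, up to 4 called genes per list by p, nearest neighbours and the 3 nearest profiles. Alternatives were pseudocount, filter, scaling, replicate block, a fit of only the libraries compared, and leaving out each library.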

Additional observations from a re-analysis of the deposited data

Results flagged for a closer look

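Among the family and pathway genes, 3 had a GFP difference that was larger in EC than in HC by the interaction term of the limma fit, adjusted over all tested genes. The excess in EC was 2.67 ± 0.35 log2 for Fbln5 (adjusted p = 0.00782), 1.41 ± 0.21 for Fn1 (adjusted p = 0.0147) and 0.74 ± 0.11 for Pdia5 (adjusted p = 0.0152). In HC, Fbln5 was at 3.47 ± 1.24 FPKM with GFP and 1.67 ± 0.459 without, Fn1 at 146 ± 12.3 and 128 ± 28.5, and Pdia5 at 35.8 ± 0.972 and 37.8 ± 2.81 (SD, n = 3), none of which passed the test between GFP+ and GFP- HC.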

How the results depend on the processing

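No called value changed direction. The EC differences of the 6 members kept a median of 2.62 to 3.07 as single libraries were left out, and 3.47 with a pseudocount of 0.1; the stricter filter (mean FPKM of 5 or more) removed Agr2 and Gkn3. Of all tested genes, the count with different GFP effects was 70, and 39 with a pseudocount of 0.1, 39 with the stricter filter and 148 with equal sums. The HC count of all genes was 566, and 363 with the stricter filter. The count for GFP- EC against GFP- HC was 569, and 332 with no filter and 284 with only the libraries compared, which also gave 939 for GFP in EC in place of 1789. Of the family genes, the EC count of 12 became 29 with equal sums and the count of different effects 5 in place of 3. Their HC count of 1 became 2 with no filter, 3 with equal sums, 4 with quantile normalization and 2 with only the libraries compared. Their GFP- count of 5 became 3 with the stricter filter and 2 with only the libraries compared.

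Without single libraries, all-gene counts ranged from 977 to 2206 (GFP in EC), 315 to 653 (GFP in HC), 1239 to 2092 (GFP+ EC against HC), 91 to 699 (GFP- EC against HC) and 23 to 77 (different effects). Family counts ranged from 11 to 17, 1 to 3, 15 to 24, 2 to 7 and 1 to 4 in the same order. Equal sums moved the median of all genes by 0.19 in EC, -0.13 for GFP- EC against HC and 0.15 for the difference of effects. The share of calls that were higher went from 51.6% to 87.0% in EC, from 45.0% to 18.2% for GFP- EC against HC and from 64.3% to 81.1% for the difference; with only the libraries compared it was 64.1% and 32.4% in the first pair, and with quantile normalization 52.9% in place of 42.6% for GFP+ EC against HC. The cause of these shifts was not tested.

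Whether replicate numbers mark paired samples is not stated, and the values do not settle it. Of 18 same-number pairs 4 correlated above 0.1 (range -0.08 to 0.27), and the 36 different-number pairs ranged from -0.22 to 0.22. The value of 0.27 was between HC GFP+ and HC GFP- replicate 2, and EC GFP- and HC GFP- replicate 2 correlated at 0.20. By this measure 6 of 12 libraries were closest to their own number. A replicate block gave 5 family genes in HC in place of 1, with 2 higher and 3 lower with GFP. In EC it gave 14 higher and 2 lower. Depth is unknown, so levels below 1 FPKM, as for Gkn3 in HC, carry no counting interval.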

Other observations

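Among the family and pathway genes, 5 that differed between EC and HC were chosen after their values were seen. Adcy7, an adenylate cyclase, was at 10.9 ± 3.12 FPKM in GFP+ HC and 0.812 ± 0.134 in GFP+ EC (13.4-fold, log2 -2.68 ± 0.30 for EC minus HC, limma adjusted p = 0.000271), and at 5.32 ± 2.69 and 0.585 ± 0.0917 in the GFP- cells. Npr3 was higher in EC in both GFP classes, at 30.7 ± 1.41 against 6.36 ± 0.591 FPKM among GFP+ cells and 12.8 ± 5.17 against 5.41 ± 0.731 among GFP- cells; the latter call ended with no filter, with only the libraries compared, without EC GFP- replicate 1 and without HC GFP- replicate 1 or 3. S100a10, an S100 protein that pairs with annexin A2, was at 208 ± 3.81 against 151 ± 7.88 FPKM among GFP+ cells and 204 ± 28.3 against 125 ± 3.62 among GFP- cells. Anxa2, which encodes that annexin, was at 484 ± 33.1 against 316 ± 21.4 FPKM among GFP+ cells. Glipr1, a CAP family protein like Pi16, was lower in GFP+ EC than in GFP+ HC, at 2.30 ± 0.811 against 7.45 ± 2.46 FPKM (log2 -1.34 ± 0.39, adjusted p = 0.0420), and the call ended with no filter and in 8 of the 12 fits that left out 1 library (each EC GFP+ replicate, EC GFP- replicate 1, and replicates 1 and 3 of both HC populations).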
